A study of Caenorhabditis elegans with 12 samples.

Results

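DNA repair enzymes formed a set of 34 genes among the 20018 genes measured in worms of Caenorhabditis elegans that had flown in space or been kept on the ground. They were chosen by gene name on the array, and all 34 were found. Mismatch repair held 5 of them, excision repair 12, homologous recombination 7 and end joining 4, and the other 6 were helicase, crosslink and translesion genes. The excision group combined 4 genes of nucleotide excision with 8 of base excision. An older name identified parp-1, parp-2 and rad-54.L on the array, a sequence name identified exo-1 and ercc-1, and the other 29 stood under their own names.

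RNA of worms from 3 strains in 4 conditions was hybridised to 12 single-colour expression arrays, 1 for each strain and condition. N2 is the wild type, LS292 carries dys-1(cx18) I in the dystrophin gene, and MT4930 carries ced-1(n1995) I in the gene of a receptor for the engulfment of dying cells. Worms of every strain were selected as dauer larvae, the resistant resting stage, with 1% SDS, and those of the flight were loaded with fresh medium. Static flight worms spent 16.5 days on Shenzhou-8 at 23 °C in microgravity, with peaks of at most 0.01 g, received 1.92 mGy and were collected 7 h after landing. Centrifuged flight worms shared that mission and its times on a centrifuge that held 1 g, and received 2.27 mGy. Ground control worms were kept in the same kind of static slot on the ground for 16.5 days at 23 °C, in a run 2 days later, and were also collected after 7 h. Transport control worms stayed in an incubator and were not transported, and their duration, container and collection are not stated. According to the labels there were technical repeats but no repeats of a sample, and each sample has 1 set of values here, so the 3 strains stood in for replicates of a condition, and a p-value measured only the spread between these arrays.

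Values are log2 intensities, already normalised between arrays by the authors, averaged over the features of a gene. The mean intensity over all features lay between 818.7 and 987 on the 12 arrays. The lowest was the MT4930 ground array, and the next lowest, the MT4930 static array, was at 915.7. The transcripts of the mutated genes did not check the strain labels: dys-1 differed by 0.37 ± 0.23 (SE) in LS292 (limma adjusted p = 0.469) and ced-1 by -0.18 ± 0.19 in MT4930 (limma adjusted p = 0.940), each against N2. The files flag no value as absent, so whether a marker was expressed could not be called. Over the 12 arrays the median level ran from 9.70 to 12.16 for the 24 germline and oocyte markers. It ran from 8.06 to 11.60 for the 6 yolk protein genes and from 7.09 to 10.75 for 14 sperm markers. For 6 dauer markers it ran from 7.75 to 11.18, and for all genes from 7.66 to 7.76. The stage of the worms at collection was not tested. Germline and oocyte markers differed widely between arrays, and their values stand beside the repair genes further on. In whole-worm RNA, fewer cells of a type and less RNA per cell cannot be told apart.

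Mismatch repair removes wrongly paired bases after replication, base excision removes single damaged bases, and nucleotide excision cuts out bulky lesions such as those made by ultraviolet light. Broken chromosomes are repaired by homologous recombination, which copies an intact template, or by end joining, which seals the ends with no template or a very short one. In C. elegans, germ cells rely largely on homologous recombination, while non-dividing somatic cells make more use of end joining and of the form of nucleotide excision that is coupled to transcription.

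Repair genes were mostly high in static flight and low in the transport control of both mutants. The condition mean was highest in static flight for 28 of the 34 genes, a pattern shown by 31.1% of all genes, and lowest in the transport control for 19, against 31.1% of all genes. The single highest array was a static flight array for 24 of the 34 (29.0% of all genes), and for 17 of these it was the MT4930 array. The single lowest array was a transport control array for 20 (31.4% of all genes), with 10 in MT4930, 9 in LS292 and 1 in N2. The range of a gene over the 12 arrays ran from 0.57 for pms-2 to 2.81 for exo-3, with a median of 1.35. Only exo-3 and polh-1 spanned at least 2 log2 units.

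**Figure D1:**
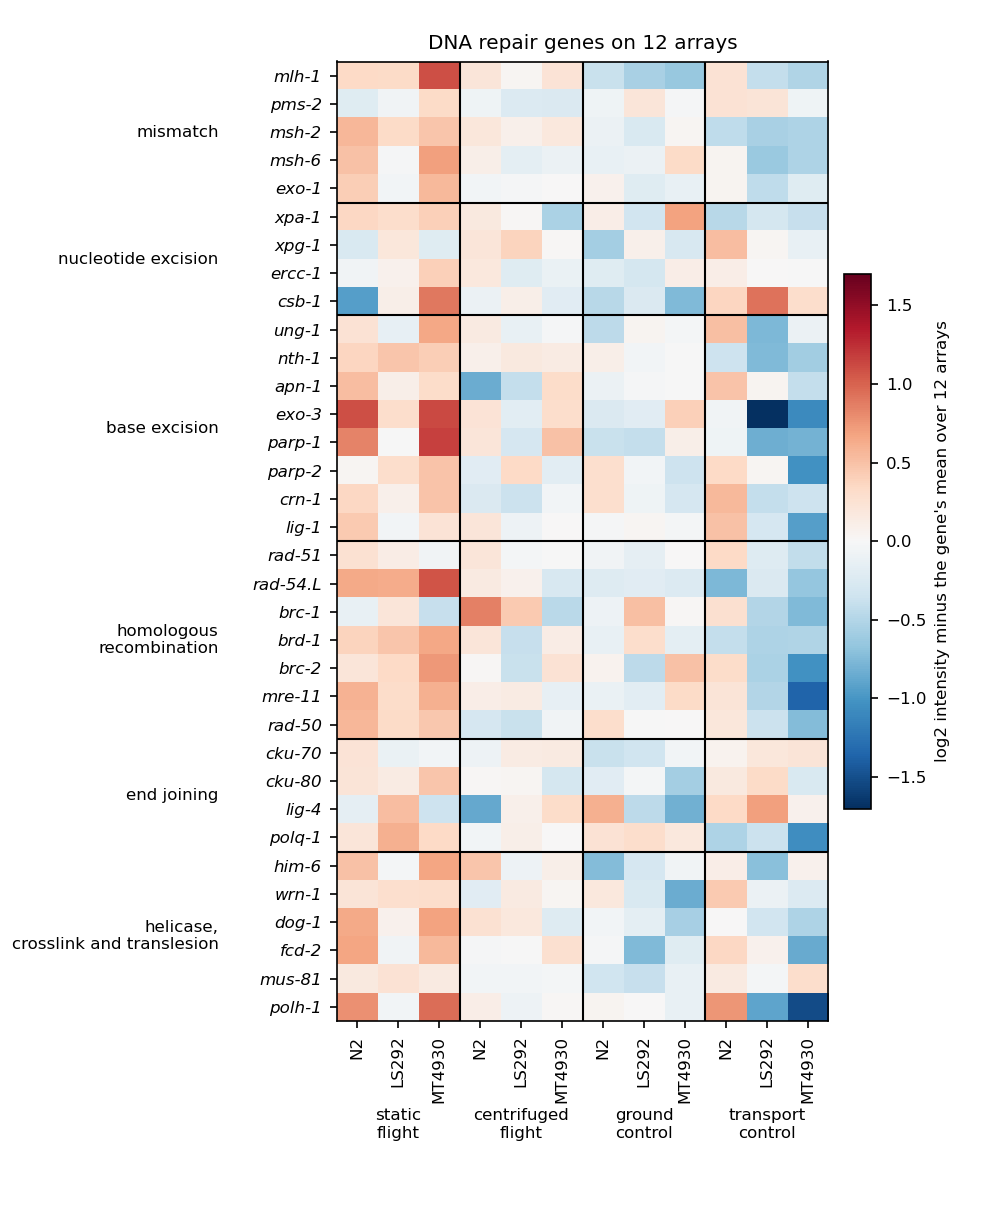
Heat map of the 34 repair genes (vertical axis, grouped by pathway) on the 12 arrays (horizontal axis, grouped by condition and labelled by strain); colour gives the log2 intensity minus the mean of that gene over the 12 arrays. Red is most frequent in the static flight columns and blue in the LS292 and MT4930 transport control columns, with exo-3 spanning the widest range, 2.81.

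The 4 conditions differed for 6 of the 34 genes in a test of any difference among conditions (limma F test, adjusted p under 0.05), against 8.23% of all genes. These were exo-3, rad-54.L, polq-1, msh-2, nth-1 and parp-1. In the comparison of both flown conditions with both controls, 6 genes rose in flight and none fell (4.28% of all genes were called higher and 1.66% lower), and the median over the 34 was 0.27 against 0.01 over all genes. In the comparison of the transport control with the mean of the other 3 conditions, 7 genes were lower and none higher (6.47% of all genes were called lower, and 1201 of the 20018 were called higher). The median over the 34 was -0.30 there, against 0.00 over all genes. The transport arrays lay below all 9 others for 4 of the 34, msh-2, nth-1, brd-1 and polq-1 (4.69% of all genes). The comparisons share the transport control arrays, and their values are given side by side for that reason. Below, the 3 values of a condition are in the order N2, LS292 and MT4930.

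The mismatch repair genes began with the recognition of the mismatch. msh-2 encodes the subunit common to the mismatch recognition complexes. It stood at 8.78, 8.54 and 8.69 in static flight, 8.42, 8.31 and 8.39 in centrifuged flight, 8.12, 7.96 and 8.24 in the ground control, and 7.79, 7.67 and 7.70 in the transport control. The arrays of the 4 conditions did not overlap, with static flight on top and the transport control at the bottom, and it was the only repair gene with all 6 flown arrays above all 6 control arrays (0.614% of all genes). msh-2 rose by 0.61 ± 0.14 (SE) in flight (limma adjusted p = 0.0200) and was at -0.67 ± 0.16 in the transport control against the other conditions (limma adjusted p = 0.0158). The difference between flown and control arrays was 0.64 in N2, 0.61 in LS292 and 0.57 in MT4930. The call for flight was lost (adjusted p from 0.0512 to 0.0646) without the N2 or MT4930 static array, the N2 or LS292 centrifuged array, the N2 ground array or the MT4930 transport array. The call for the transport control was lost without the LS292 transport array (adjusted p = 0.0686) or the MT4930 transport array (adjusted p = 0.119).

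mlh-1 encodes a MutL protein that acts after recognition. Its levels were 9.53, 9.51 and 10.28 in static flight, 9.39, 9.22 and 9.41 in centrifuged flight, 8.81, 8.63 and 8.54 in the ground control, and 9.43, 8.78 and 8.67 in the transport control. Every flown array exceeded every ground array, while the N2 transport array lay among the flown ones. mlh-1 rose by 0.75 ± 0.19 in flight (limma adjusted p = 0.0302). Against the ground control alone it was the largest repair difference, 1.11 ± 0.26 in static flight (limma adjusted p = 0.0920) and 0.68 ± 0.26 in centrifuged flight (limma adjusted p = 0.754), and neither passed. The flight call was lost (adjusted p from 0.0603 to 0.101) without the MT4930 static array, any of the 3 centrifuged arrays, the N2 or MT4930 ground array, or the LS292 or MT4930 transport array. pms-2, whose product is the partner of MLH-1, moved little, at -0.16 ± 0.16 in flight, and spanned only 0.57 over all arrays. Its 2 features differed in sign in the transport control against the other conditions, at 0.56 and -0.21. msh-6, the partner of msh-2 for small mismatches, was at 0.33 ± 0.17 in flight and exo-1, an exonuclease that removes the strand with the error, at 0.29 ± 0.15 (limma adjusted p = 0.312 and 0.328).

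Base excision repair held 3 of the 6 genes that rose in flight. nth-1 encodes a glycosylase that removes oxidised pyrimidines. It measured 9.11, 9.21 and 9.15 in static flight, 8.82, 8.91 and 8.88 in centrifuged flight, 8.84, 8.69 and 8.73 in the ground control, and 8.38, 7.98 and 8.15 in the transport control. The static arrays lay above all others and the transport arrays below all others, while centrifuged flight and ground control overlapped. nth-1 rose by 0.55 ± 0.15 in flight (limma adjusted p = 0.0400) and was at -0.76 ± 0.17 in the transport control (limma adjusted p = 0.00922). Against the ground control alone, static flight was at 0.26 in N2, 0.52 in LS292 and 0.43 in MT4930. Centrifuged flight was at -0.02, 0.22 and 0.15 there. The flight call held without the N2 transport array and was lost without any 1 of the other 11 arrays (adjusted p from 0.0688 to 0.117). It was lost too under median centring (adjusted p = 0.0505), quantile normalization (adjusted p = 0.0657) and a trended and robust variance (adjusted p = 0.0585). The transport call was lost without the LS292 transport array (adjusted p = 0.0920) or the MT4930 transport array (adjusted p = 0.0699).

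exo-3 encodes an endonuclease that cuts the backbone where a base has been removed. It read 10.82, 10.02 and 10.85 in static flight, 9.96, 9.55 and 10.03 in centrifuged flight, 9.48, 9.53 and 10.12 in the ground control, and 9.67, 8.03 and 8.64 in the transport control. The LS292 and MT4930 transport arrays were far below the rest, and the N2 transport array lay within the centrifuged and ground values. exo-3 rose by 0.96 ± 0.21 in flight, a 1.94-fold difference (limma adjusted p = 0.0142), and was at -1.26 ± 0.24 in the transport control (limma adjusted p = 0.00348). Against the ground control alone, static flight was at 1.35 in N2, 0.49 in LS292 and 0.72 in MT4930. Centrifuged flight was at 0.48, 0.02 and -0.09 there, so the flight value also drew on the low transport arrays. Within strains the transport difference was -0.42 in N2, -1.67 in LS292 and -1.69 in MT4930. Its 2 features agreed in direction, at 1.09 and 0.83 in flight. The flight call was lost without the MT4930 static array (adjusted p = 0.0529) or the MT4930 transport array (adjusted p = 0.0532), and the transport call without the LS292 transport array (adjusted p = 0.0520) or the MT4930 transport array (adjusted p = 0.0614). With no replicate block for strain, exo-3 missed the threshold in flight (adjusted p = 0.0530).

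parp-1 encodes a poly(ADP-ribose) polymerase that marks strand breaks. Its levels were 11.78, 10.94 and 12.10 in static flight, 11.16, 10.66 and 11.44 in centrifuged flight, 10.57, 10.54 and 11.04 in the ground control, and 10.87, 10.12 and 10.14 in the transport control. LS292 lay below N2 and MT4930 in both flown conditions, and the conditions overlapped. parp-1 rose by 0.80 ± 0.19 in flight (limma adjusted p = 0.0214) and was at -0.76 ± 0.22 in the transport control (limma adjusted p = 0.0347). The flight call was lost (adjusted p from 0.0516 to 0.0820) without the N2 or MT4930 static array, the LS292 or MT4930 centrifuged array, the N2 ground array or the MT4930 transport array. The transport call held without the LS292 static, N2 ground or N2 transport array and was lost without any 1 of the other 9 (adjusted p from 0.0510 to 0.356). Without the MT4930 transport array that difference was -0.45. With no replicate block, both parp-1 calls were lost (adjusted p = 0.0681 and 0.0925).

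The other 5 base excision genes did not pass in any comparison. In flight they stood between -0.00 for apn-1, another endonuclease for sites without a base, and 0.26 for both ung-1, which removes uracil from DNA, and parp-2, a second poly(ADP-ribose) polymerase. Between these limits were crn-1, a flap nuclease also used in replication, at 0.09 ± 0.18 and lig-1, the ligase that closes the repaired strand, at 0.25 ± 0.19. The 2 features of ung-1 gave 0.82 and -0.03 for static flight against ground control, and those of lig-1 gave 0.45 and 0.05 in flight, so their averages joined unlike values.

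In nucleotide excision none of the 4 genes passed, and their median in flight was 0.10. xpa-1, which verifies the lesion, was at 0.23 ± 0.19 in flight, and xpg-1 and ercc-1, which serve the incisions on either side of it, were at 0.11 ± 0.17 and 0.10 ± 0.16. csb-1 acts where a polymerase has stalled on a lesion in a transcribed gene. It stood at 6.99, 8.03 and 8.82 in static flight and at 7.83, 8.02 and 7.74 in centrifuged flight. The levels were 7.46, 7.69 and 7.18 in the ground control and 8.29, 8.85 and 8.22 in the transport control. Ground and transport arrays did not overlap, as in 10.6% of all genes, while the static arrays overlapped both. The difference of ground from transport control was -1.01 ± 0.34, which did not pass (limma adjusted p = 0.105).

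All 7 homologous recombination genes had their lowest condition mean in the transport control (31.1% of all genes). Of these 2, rad-54.L and brd-1, passed as lower there (6.47% of all genes). rad-54.L encodes a motor protein that helps the recombinase invade the template. It was measured at 7.94, 7.93 and 8.35 in static flight, 7.45, 7.37 and 7.02 in centrifuged flight, 7.08, 7.10 and 7.06 in the ground control, and 6.53, 7.05 and 6.64 in the transport control. All static arrays lay above all 9 others, and the centrifuged arrays overlapped both controls through MT4930. rad-54.L rose by 0.77 ± 0.17 in flight (limma adjusted p = 0.0135), the smallest p of the repair genes there, and was at -0.74 ± 0.19 in the transport control (limma adjusted p = 0.0220). It also had the smallest p of static flight against ground control (1.00 ± 0.23, limma adjusted p = 0.0902) and against centrifuged flight (0.79 ± 0.23, limma adjusted p = 0.178), and passed in neither. The flight call was lost without the MT4930 static array (adjusted p = 0.0535). The transport call was lost without the N2 transport array (adjusted p = 0.0977) or the MT4930 transport array (adjusted p = 0.150).

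brd-1 and brc-1 encode the partners of a ubiquitin ligase, the counterpart of human BARD1 and BRCA1, that acts at breaks. brd-1 stood at 8.41, 8.52 and 8.69 in static flight, 8.25, 7.65 and 8.16 in centrifuged flight, 7.91, 8.35 and 7.88 in the ground control, and 7.64, 7.51 and 7.53 in the transport control. The transport arrays lay below all others, though the LS292 centrifuged array came close to them. brd-1 was at -0.64 ± 0.20 in the transport control (limma adjusted p = 0.0464) and at 0.48 ± 0.17 in flight (limma adjusted p = 0.128). The transport call held without the LS292 centrifuged, N2 ground or MT4930 ground array and was lost without any 1 of the other 9 (adjusted p from 0.0600 to 0.227), under quantile normalization (adjusted p = 0.0522) and under a trended and robust variance (adjusted p = 0.0702).

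brc-1 passed in no comparison. Its levels were 7.93, 8.26 and 7.67 in static flight, 8.92, 8.50 and 7.60 in centrifuged flight, 7.98, 8.57 and 8.08 in the ground control, and 8.33, 7.56 and 7.31 in the transport control. It was the only repair gene with static flight below ground control in all 3 strains, a pattern shown by 11.9% of all genes, and the fitted difference was -0.26 ± 0.29 (limma adjusted p = 0.804). The other recombination genes did not pass. In the transport control rad-51, the recombinase itself, was at -0.13 ± 0.18, brc-2, its loader, at -0.56 ± 0.26, and mre-11 and rad-50, of the complex that resects broken ends, at -0.73 ± 0.26 and -0.41 ± 0.19 (limma adjusted p = 0.713, 0.189, 0.0828 and 0.194). The strains differed in these values. For rad-51, brc-2, mre-11 and rad-50 in turn, N2 was at 0.21, 0.21, 0.03 and -0.01. LS292 was at -0.21, -0.37, -0.58 and -0.35, and MT4930 at -0.39, -1.52, -1.62 and -0.87.

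The 4 end joining genes belong to different routes. polq-1 encodes the polymerase of the route that uses very short matches at the ends. It read 8.04, 8.44 and 8.18 in static flight, 7.79, 7.94 and 7.85 in centrifuged flight, 8.09, 8.13 and 8.02 in the ground control, and 7.32, 7.48 and 6.79 in the transport control. All 3 transport arrays lay below the other 9, and the MT4930 one was the lowest. polq-1 was at -0.86 ± 0.18 in the transport control (limma adjusted p = 0.00596), and it was the only repair gene that passed between ground and transport control, at 0.88 ± 0.22 (limma adjusted p = 0.0306), where 3.09% of all genes were called higher. The first call was lost without the MT4930 transport array (adjusted p = 0.0941). The second was lost without any of the 3 ground arrays or the LS292 or MT4930 transport array (adjusted p from 0.0550 to 0.199). It was lost under a trended and robust variance (adjusted p = 0.0598) and when the fit held only the 2 conditions (adjusted p = 0.139).

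The genes of classical end joining did not pass, and their transport control values were above 0. In the transport control cku-70 and cku-80, whose products bind broken ends, were at 0.21 ± 0.17 and 0.10 ± 0.19, and lig-4, the ligase that seals them, was at 0.49 ± 0.31 (limma adjusted p = 0.494, 0.794 and 0.356). In flight lig-4 was at -0.15 ± 0.27. cku-70 was among the steadiest repair genes, between 8.72 and 9.32. It stood at 9.32, 8.98 and 9.05 in static flight and at 9.01, 9.23 and 9.24 in centrifuged flight. All 3 of its ground arrays, at 8.72, 8.76 and 9.04, lay below its transport arrays at 9.15, 9.29 and 9.31. The same held for csb-1 and mus-81, so for 3 of the 34 repair genes, beside 10.6% of all genes. The median of the 4 end joining genes in the transport control was 0.16, beside -0.56 for homologous recombination, -0.30 for mismatch repair, -0.31 for base excision and 0.12 for nucleotide excision. The nucleotide excision genes joined unlike values there, from -0.52 for xpa-1 to 0.70 for csb-1. These medians describe small groups, and the differences between groups were not tested.

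**Figure D2:**
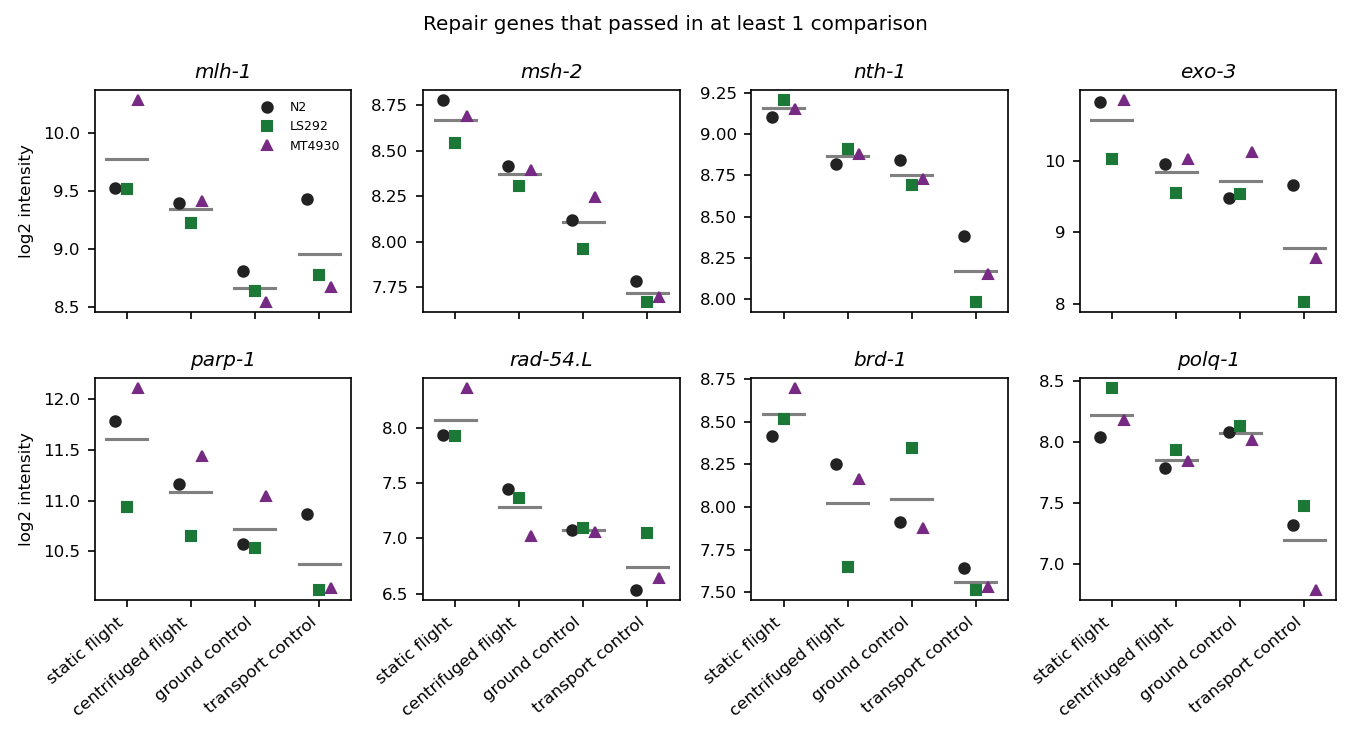
Log2 intensity (vertical axis, scaled for each gene) of the 8 repair genes that passed in at least 1 comparison, by condition (horizontal axis), with 1 point for each strain and a grey line at the condition mean. The transport arrays of msh-2, nth-1, brd-1 and polq-1 lie below all others, whereas the N2 transport arrays of mlh-1, exo-3 and parp-1 lie within the other conditions.

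At an unadjusted p under 0.05, 5 of the 6 helicase, crosslink and translesion genes were higher in static flight against ground control (8.33% of all genes). That was the largest share of any group, but the groups were not compared by a test, and none of the 5 passed after adjustment. These were him-6 at 0.74 ± 0.26, dog-1 at 0.73 ± 0.24, fcd-2 at 0.71 ± 0.30, wrn-1 at 0.58 ± 0.26 and mus-81 at 0.48 ± 0.20 (limma adjusted p = 0.260, 0.219, 0.375, 0.402 and 0.380). him-6 and wrn-1 encode helicases related to the human Bloom and Werner proteins, and dog-1 one that unwinds guanine-rich DNA. fcd-2 acts on crosslinks between strands, and mus-81 is a nuclease that cuts branched DNA.

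polh-1, a polymerase that copies past ultraviolet damage, had the largest fitted flight difference of these 6 but the least regular one. It stood at 9.52, 8.69 and 9.68 in static flight, 8.85, 8.66 and 8.76 in centrifuged flight, 8.79, 8.74 and 8.62 in the ground control, and 9.48, 7.85 and 7.21 in the transport control. N2 and MT4930 were high in static flight and LS292 was not, and in the transport control N2 was as high as in flight while both mutants were the lowest of all arrays. The flight difference was 0.58 ± 0.27 (limma adjusted p = 0.268), with 0.05 in N2, 0.38 in LS292 and 1.31 in MT4930.

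**Figure D3:**
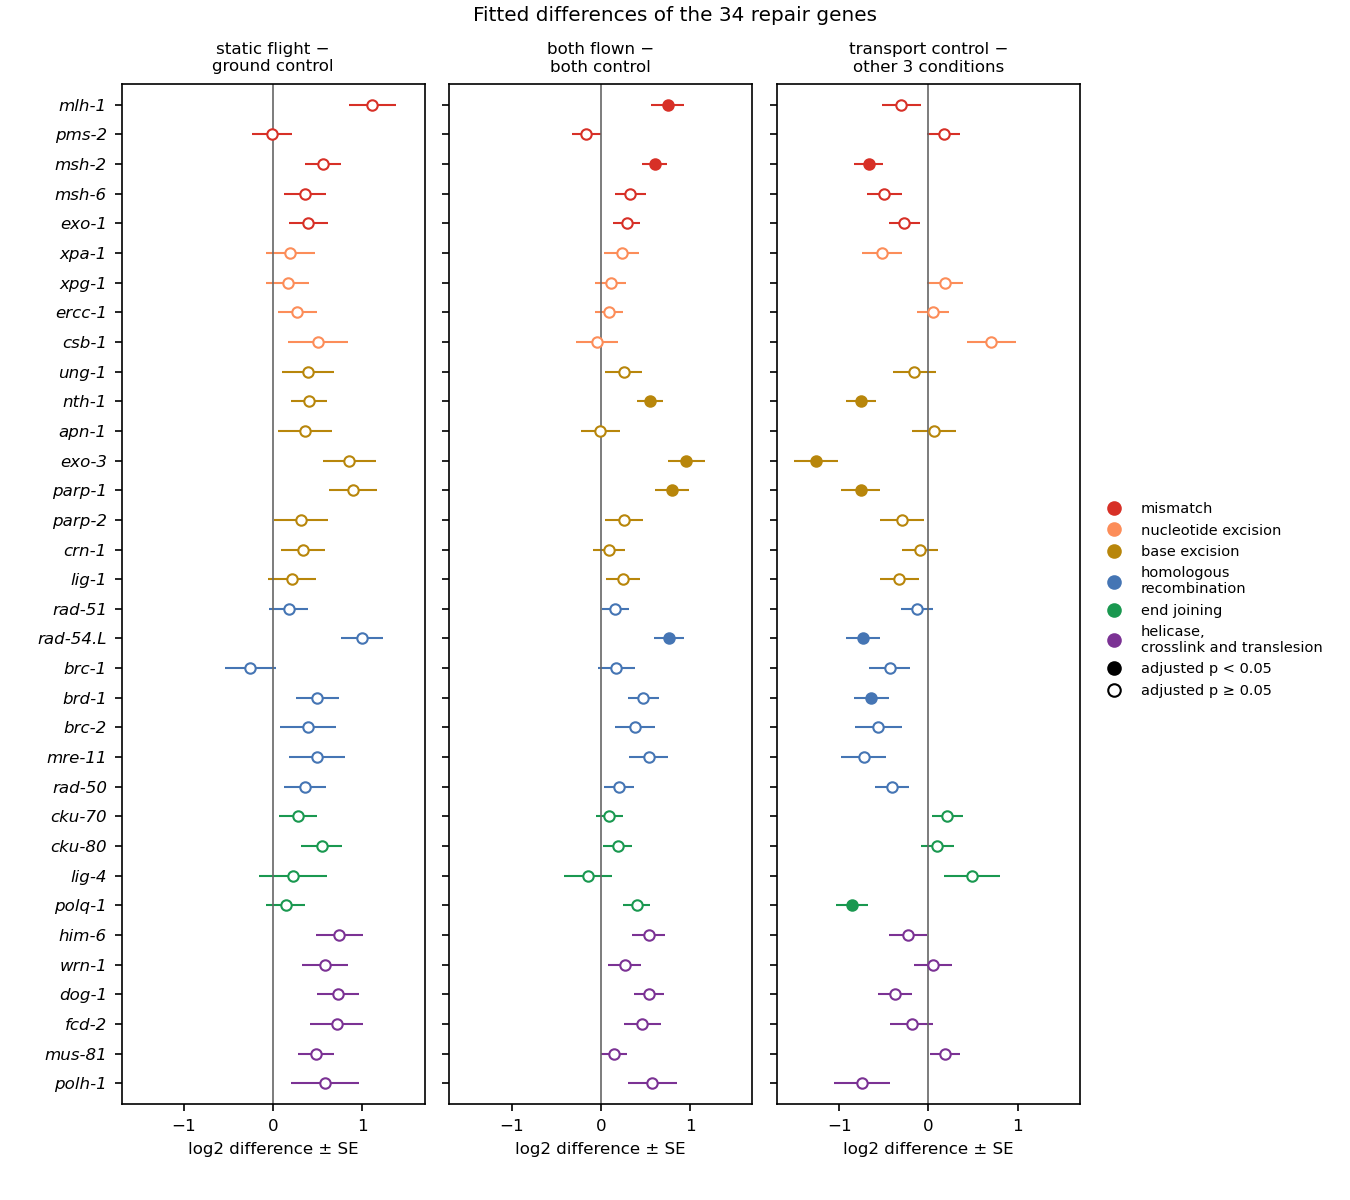
Fitted log2 differences with SE (horizontal axis) of the 34 repair genes (vertical axis, coloured by pathway) for static flight against ground control, both flown against both control conditions, and the transport control against the other 3 conditions; filled points passed at an adjusted p under 0.05. Most points lie to the right of 0 in the first and second panels, 6 filled in the second, and 7 filled points lie to the left of 0 in the third.

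No repair gene passed in the single contrasts of the flight, where few of all genes passed either. Static flight against ground control gave 0 of 34 passing with limma, where 0.210% of all genes passed, and at an unadjusted p under 0.05 it gave 11 higher and 0 lower, where 8.33% of all genes were higher and 3.38% lower. The median over the 34 was 0.39 against 0.04 over all genes. Within strains this median was 0.44 in N2, 0.32 in LS292 and 0.46 in MT4930, and 23 genes were higher in all 3 strains (21.6% of all genes). All static arrays lay above all ground arrays for 12 of the 34 (10.2% of all genes). Among these were apn-1, rad-50 and cku-80, at 0.36 ± 0.31, 0.35 ± 0.24 and 0.54 ± 0.23. The count at an unadjusted p was 7 without the MT4930 static array and 7 without the N2 ground array.

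Static against centrifuged flight, which differ in gravity within 1 mission and in measured dose, gave 0 of 34 passing with limma (0.00500% of all genes) and 4 higher at an unadjusted p under 0.05 (7.94% of all genes). The static arrays lay above all centrifuged arrays for 13 of the 34 (8.54% of all genes). The median over the 34 was 0.32 against 0.00 over all genes, with 0.27 in N2, 0.17 in LS292 and 0.53 in MT4930. Without the MT4930 static array the count at an unadjusted p was 2 and the median 0.19, and without the N2 centrifuged array the count was 2. It was 7 with array weights or with only these conditions fitted. rad-50 had a difference of 0.70 ± 0.24, exo-3 of 0.72 ± 0.30 and brd-1 of 0.52 ± 0.24 beside that of rad-54.L, and these were the 4 genes counted.

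Centrifuged flight against ground control, both at 1 g, gave 0 of 34 passing with limma (0.0350% of all genes). At an unadjusted p under 0.05 only mlh-1 was higher (3.09% of all genes). The median over the 34 was 0.12 against 0.05 over all genes, and 25 of the 34 were above 0, as were 11406 of all 20018 genes. Without the N2 ground array that median was 0.06, and without the LS292 ground array 0.19, and under quantile normalization it was 0.05. The count at an unadjusted p was 0 without the LS292 centrifuged or MT4930 ground array, and 2 without the MT4930 centrifuged, LS292 ground or N2 transport array. The contrasts share their arrays, since static flight is compared with both other conditions.

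Comparisons of the strains used all 4 conditions. No repair gene passed for LS292 against N2 or MT4930 against N2, nor did any other gene, with limma. At an unadjusted p under 0.05, exo-3 and parp-1 were lower in LS292, at -0.70 ± 0.26 and -0.53 ± 0.23, where 7.28% of all genes were lower, and brc-1 was lower in MT4930, at -0.62 ± 0.25 (2.51% of all genes). The LS292 count was 0 without the N2 transport array, 1 without the N2 static, LS292 static or LS292 centrifuged array, 4 without the MT4930 static or MT4930 transport array, 5 without the LS292 ground array and 7 without the N2 ground array. The MT4930 count was 0 without the MT4930 centrifuged, N2 transport or MT4930 transport array, 2 without the N2 ground array and 4 without the MT4930 static array. LS292 lay below N2 in all 4 conditions for 8 of the 34 (2601 of the 20018 genes did so) and above it for csb-1 and polq-1 (10.6% of all genes). The 4 end joining genes were all above 0 in LS292 against N2, from 0.02 to 0.24, and the medians of the other groups ran from -0.37 for base excision to 0.04 for nucleotide excision.

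On the 1 transport array of each strain, the repair genes stood differently to the other conditions, though no difference among strains passed a test. In N2, 22 of the 34 repair genes were above the mean of the other 3 conditions (51.2% of all genes), in LS292 9 (49.4%) and in MT4930 5 (50.7%). The median difference of the 34 was 0.14 in N2, -0.35 in LS292 and -0.59 in MT4930, and in homologous recombination 0.03, -0.42 and -0.84. A test of whether the transport difference varied among strains passed for 0 of the 34 and for no other gene (limma F test), with 4 of the 34 at an unadjusted p under 0.05 (4.43% of all genes). Those were polh-1, brc-2, mre-11 and lig-1. The test of whether the flight difference varied among strains also passed for 0 of the 34, with 0 at an unadjusted p under 0.05 (2.38% of all genes, limma F test). The flight test pooled the flown conditions and pooled the controls, and the transport test pooled the other 3 conditions. Pooled conditions served as repeats, so differences between them counted as spread. A result of 0 therefore does not show that the strains responded alike.

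The numbers of repair genes that passed rested on single arrays. Of the 6 that passed for flight, 0 did without the MT4930 static array, 1 without the MT4930 transport array, 2 without the LS292 centrifuged or the N2 ground array, and 3 without the N2 static, N2 centrifuged or MT4930 centrifuged array. Without the N2 transport array 8 passed. Of the 7 that passed for the transport control, 0 did without the MT4930 transport array and 2 without the LS292 transport array. The 6 that passed among any conditions fell to 1 without the N2 or MT4930 static array or the LS292 or MT4930 transport array, and to 3 without the LS292 static, N2 centrifuged or LS292 centrifuged array. The median of the 34 in flight stayed between 0.21 and 0.40 as each array was left out in turn, and that of the transport control between -0.47 and -0.08. Without the N2 transport array these medians were 0.40 and -0.47, and without the MT4930 transport array the second was -0.08.

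Markers of germ cells moved with the repair genes across arrays. The median deviation of the 24 germline and oocyte markers from their means was 0.94, 0.16 and 1.04 in static flight (N2, LS292, MT4930), 0.06, -0.41 and 0.29 in centrifuged flight, -0.06, -0.22 and 0.04 in the ground control, and 0.88, -1.58 and -1.28 in the transport control. The same quantity for the 34 repair genes was 0.36, 0.16 and 0.48, then 0.10, -0.01 and 0.01, then -0.09, -0.18 and -0.04, and last 0.20, -0.34 and -0.51. Both were high on the N2 and low on the mutant transport arrays. Of the 24 markers, 3 rose in flight with a median of 0.62 (4.28% of all genes rose). In the transport control 3 of the 24 were lower with a median of -0.76 (6.47% of all genes were lower). The 12 meiotic prophase markers had medians of 0.30 in flight and -0.48 in the transport control, with 1 of 12 passing in each. The share of germ cells in the repair differences was not tested. The median deviation of the 11 body wall muscle markers ran from -0.34 to 0.39 over the 12 arrays. In flight 0 of the 11 passed with limma, with 4 higher at an unadjusted p under 0.05. At that threshold 12 of the 34 repair genes and 11.5% of all genes were higher. In the transport control 1 of the 11 was lower, the troponin gene mup-2 at -0.78 ± 0.22 (limma adjusted p = 0.0303). The median there was -0.08, with 2 lower at an unadjusted p under 0.05 (12.4% of all genes).

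Sperm, yolk and dauer markers differed between conditions as well. Of 14 sperm markers 11 rose in flight (median 1.20), where 4.28% of all genes were called higher. The median deviation of the sperm markers in the transport control was -1.21, -1.72 and -1.30, low in N2 too. Of the 6 yolk protein genes 4 rose in flight (median 1.18). In the transport control 5 of the 6 were lower (median -1.52), where 6.47% of all genes were called lower. Of the 6 dauer markers 2 fell in flight (median -0.36), where 1.66% of all genes were called lower. Their flight values ran from -2.58 to 1.12, with 4 below 0 and 2 above. At an unadjusted p under 0.05, 1 of the 6 was higher in flight (limma). In the transport control 3 of the 6 were higher (median 0.84), where 1201 of the 20018 genes were called higher. The dauer values there ran from -0.43 to 3.42, with 4 above 0 and 2 below. The part of developmental stage in the repair differences was not tested.

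DNA replication genes, which share ligases and nucleases with repair, moved in the same directions. Of the 23 measured, 5 rose in flight with a median of 0.49, among them pole-1, a replicative polymerase subunit, by 0.80 ± 0.17, and the helicase subunits mcm-3 by 0.90 ± 0.20 and mcm-6 by 0.69 ± 0.18 (limma adjusted p = 0.0107, 0.0146 and 0.0357). In the transport control 4 were lower, with a median of -0.50. Of 31 further DNA repair genes outside the set, 1 rose in flight, the nuclease and helicase gene dna-2, by 0.82 ± 0.20 (limma adjusted p = 0.0230). The transport control had 2 of the 31 lower, dna-2 at -1.08 ± 0.23 and com-1, a resection factor, at -0.68 ± 0.19 (limma adjusted p = 0.00636 and 0.0278). The medians of the 31 were 0.27 in flight and -0.23 in the transport control, close to those of the 34. Over all genes 4.28% were called higher in flight and 6.47% lower in the transport control, and the counts of the 31 were near these shares.

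Genes that signal DNA damage did not pass. Of 12 checkpoint genes 0 passed in flight with limma, and 3 were higher at an unadjusted p under 0.05 (11.5% of all genes). These were hpr-17, which loads the checkpoint clamp, at 0.64 ± 0.21, the worm p53 gene cep-1 at 0.45 ± 0.16, and the kinase gene chk-1 at 0.40 ± 0.18 (limma adjusted p = 0.105, 0.119 and 0.257). In the transport control 0 of the 12 passed with limma, with 2 lower at an unadjusted p under 0.05 (12.4% of all genes).

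**Figure D4:**
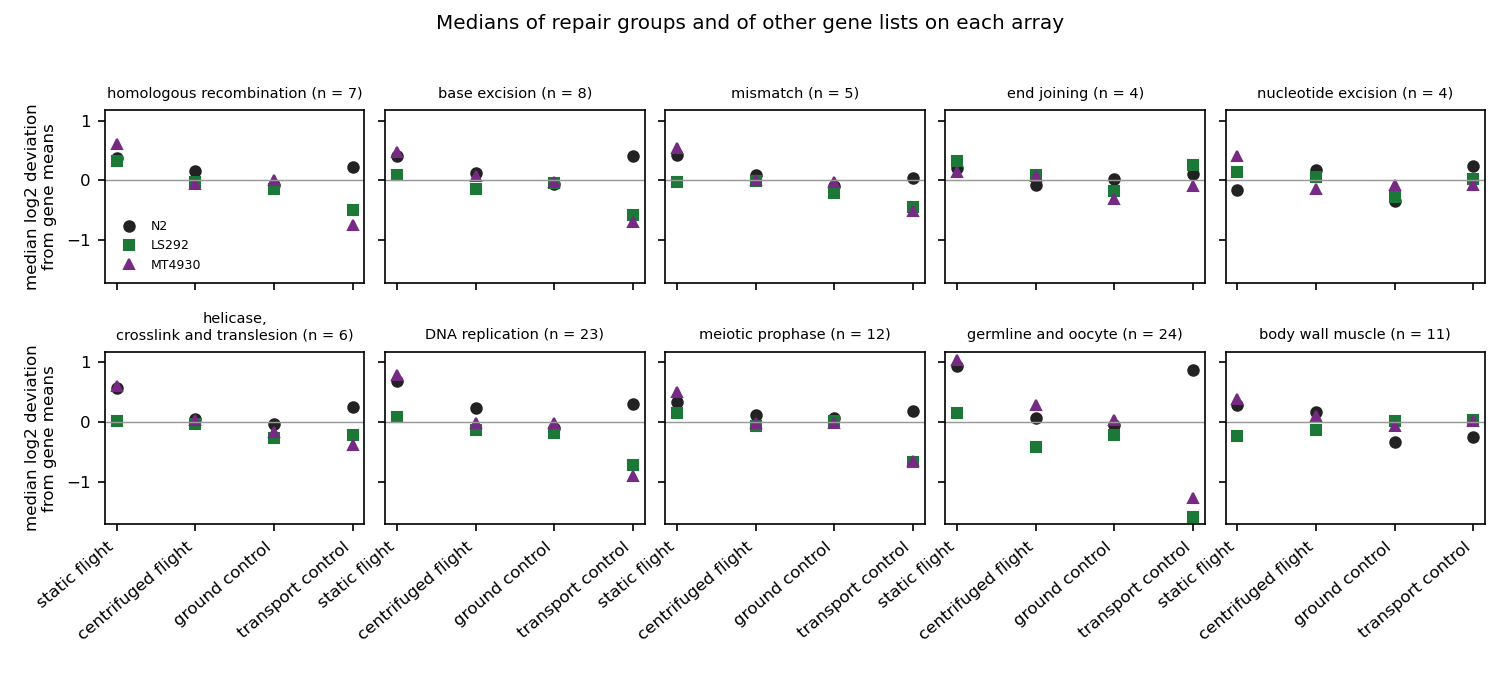
Median log2 deviation from gene means (vertical axis) of the 6 repair groups and of 4 other gene lists on each array, by condition (horizontal axis) and strain (symbols), with the number of genes in each panel title. In the transport control N2 lies above both mutants for every repair group except end joining. The same holds for DNA replication, meiotic prophase and the germline and oocyte list (0.88 against -1.58 and -1.28). The gap is small for nucleotide excision (0.24 against 0.02 and -0.07), and N2 does not lie above both mutants for end joining or body wall muscle.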

How the data were processed

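Total RNA of 12 worm samples was labelled with Cy3 and hybridised to single-colour NimbleGen arrays. The deposited files hold 1 linear intensity for each of 23187 features, which the authors background-corrected, normalised and summarised by RMA. The submitters' processing notes name this method without a version. This step is meant to make arrays alike in distribution, so a change in total RNA is not visible. The deposited arrays were not fully alike, since their mean intensities differed. Precision is limited by the number of arrays. From the deposited intensity, log2 values were taken with no pseudocount and averaged by WormBase gene identifier, giving 20018 genes, 2273 of them with several features.

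limma 3.58.1 in R 4.3.3 was fitted to all genes and all 12 arrays with condition and strain as factors (6 residual and 7.71 prior degrees of freedom). Adjustment of p-values followed Benjamini and Hochberg across all 20018 genes, and a gene passed under 0.05. Strain pairs the arrays per the labels and is the replicate block; deviations of arrays of the same strain correlated between -0.12 and 0.47. The steps were tested on simulated data. The members and all gene lists were chosen with earlier results of these data known. Of the lists, 23 of 25 replication genes and 14 of 15 sperm genes were matched, and all others in full. Values on all arrays were given for members that passed, that had the smallest p of a comparison, or the largest flight difference of their group; csb-1 and cku-70 were added after their values were seen. At most 4 genes of another list were named. The tests of flight by strain and of transport control by strain used separate fits, in which the pooled conditions served as repeats. The test of transport control by strain was added after seeing the data. Alternatives were other normalisations, variance models, feature choices, low-value filters, omission of the block and omission of arrays.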

Additional observations from a re-analysis of the deposited data

How the results depend on the processing

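No call changed direction under the alternatives run. Without the MT4930 transport array, 2 medians over members that were near 0 changed sign, that of ground against transport control from 0.08 to -0.10 and that of MT4930 against N2 from -0.06 to 0.02. The first was -0.07 without all MT4930 arrays, and the second 0.02 without all transport control arrays. Leaving out a whole strain removes 4 arrays. Without N2, 2 members passed for flight and 1 for any condition, and the median of static flight against ground control was 0.47. Without LS292 or without MT4930, 0 passed (limma) for flight, for the transport control, for ground against transport control and for any condition; the median of static flight against ground control was 0.48 without LS292, and that of centrifuged flight against ground control 0.19 without MT4930. Under quantile normalization those medians were 0.27 and 0.046. For ground against transport control, 0 passed with a trended and robust variance or with only these conditions fitted, and 2 with array weights. With no replicate block, 4 members passed for flight, 6 for the transport control and 5 for any condition, against 6, 7 and 6. The cause of these changes was not tested, other than that fewer arrays entered where a strain was left out.

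Leaving out each array in turn gave 0 to 8 members passing for flight, 0 to 8 for the transport control, 0 to 2 for ground against transport control and 1 to 7 for any condition. The medians over members ran from 0.30 to 0.48 for static flight against ground control, 0.19 to 0.43 for static against centrifuged flight, 0.065 to 0.19 for centrifuged flight against ground control and -0.10 to 0.27 for ground against transport control. They ran from 0.21 to 0.40 for flight, -0.47 to -0.08 for the transport control, -0.27 to -0.07 for LS292 and -0.14 to 0.02 for MT4930. No background flag was given, so dim values could not be set apart from unexpressed genes.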
